A study of Homo sapiens and Mus musculus with 4 samples.

Results

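The genes that encode the proteins of the cytosolic ribosome were described across 4 lymphocyte cell lines. Members were the protein-coding genes whose symbol, in upper case, is RPL or RPS followed by a number and an optional letter or L ending, plus RPLP0, RPLP1, RPLP2 and RPSA. The rule found 163 genes of the 60736 in the table, 82 of 32738 human genes and 81 of 27998 mouse genes. The rule used symbols only and no measured value, but it was chosen with earlier results of these data known. Mouse Rps3a1, FAU, RACK1 and the paralogs RPL22L1, RPL26L1 and RPL7L1 are ribosomal or ribosome-related proteins whose symbols fall outside the rule, and their values are given beside the members.

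The study sequenced these lines in bulk to serve as the baseline for a comparison of single-cell methods. Jurkat, a human CD4+ T cell leukaemia line grown in RPMI-1640 with 10% serum, and TALL104, a small human CD8+ T cell line grown in IMDM with 15% serum and interleukin 2, gave the human libraries. EL4, a mouse T cell lymphoma line grown in RPMI-1640 with 10% serum and 2-mercaptoethanol, and IVA12, a mouse B cell line grown in DMEM with 10% serum, gave the mouse libraries. Each line was sequenced as 1 poly(A)-selected library, so no difference between lines has a replicate check and no p-value was computed. Line, donor or strain, medium and library cannot be told apart in these data. The human lines were compared with each other and the mouse lines with each other, since human and mouse genes rest on separate annotations.

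The values are FPKM, fragments per unit length of exon, scaled to a fixed library size. Because the values keep full precision, a whole count that fits was recovered for every value. The library totals were 34783047 for Jurkat and 28345951 for TALL104, and 32149319 for EL4 and 25286728 for IVA12. Members at 1 FPKM or more in both lines of a pair rested on 68 to 67898 counts in the human libraries and 895 to 134019 in the mouse libraries. T cell markers were at 1 FPKM or more for 8 of 8 genes in Jurkat, for 7 each in TALL104 and EL4, and for 2 in IVA12. Of 8 B lineage markers, 5 reached 1 FPKM in IVA12 and 1 did so in EL4, while TALL104 had 4 and Jurkat 3 at that level. They included CD79A at 16.5 and 24.6 FPKM and MZB1 at 47.7 and 8.88 FPKM in Jurkat and TALL104. IVA12 had Jchain at 1289 FPKM and Mzb1 at 499 FPKM, whereas Cd79a and Pax5 were at 0.054 and 0.156 FPKM.

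Each ribosome has a large subunit, which forms peptide bonds and carries the exit tunnel, and a small subunit, which reads the messenger RNA, and each subunit holds a fixed set of proteins made from separate genes across the genome. Most of these messenger RNAs begin with a cytosine and an unbroken run of pyrimidines, the 5′ terminal oligopyrimidine or TOP motif, through which the mTOR pathway and the protein LARP1 govern their translation together. Lymphocytes raise ribosome production when they leave rest and divide, and several of the genes have close paralogs with narrower tissue expression.

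The starts of the human transcripts are shown first, because the TOP motif was a sequence feature that the symbol rule did not use and because the members that differed most between the human lines can be read against it. The letters are the first 15 transcribed bases of the annotated transcript on hg19, 5′ to 3′, and capitals mark the leading cytosine with the pyrimidines that follow it without a break.
RPS7: CTCgcgctgtttccg
RPL22: CCTTTCTaactccgc
RPS23: CTCTTTCgctcaggc
RPL36: CCTTCCgccacggcc
RPS27: CCTTTCCggcggtga
RPL10: CTCTTTCCCTTCggt
RPLP1: CCCCTTTCCTCagct
RPL28: CTCTTTCCgtctcag
RPL39: CCCTCCTCTTCCTTT
RPL39L: gcggtcttagcatcc
RPS27L: gcagatcgcttgcag
A start with a cytosine and at least 4 further pyrimidines stood at 58 of 82 human members, 70.7%, against 4.68% of 19001 human protein-coding genes with an annotated start. In the mouse annotation it stood at 11 of 81 members, 13.6%, against 2.12% of 21493 genes. RPS27L and RPL39L, the paralogs of RPS27 and RPL39, begin with a guanine in this annotation. The starts are those of 1 annotated transcript per gene and were not measured in these libraries. Human and mouse starts came from different annotation releases, and the choice of transcript depends on the annotation. The human and mouse shares therefore do not compare the species. Where each of these starts lies is given by RPS7 at chr2:3622850-3622864 and RPS27 at chr1:153963238-153963252 on the plus strand, and by RPL39 at chrX:118925579-118925593 and RPL39L at chr3:186857270-186857284 on the minus strand.

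RPL39 encodes a very small protein that lines the exit tunnel, and RPL39L is its paralog, known from male germ cells and some cancer lines. Their coding sequences are shown because the paralog gave the widest spread between lines of any member in both species. Capitals mark the bases that differ within a species.
RPL39, human: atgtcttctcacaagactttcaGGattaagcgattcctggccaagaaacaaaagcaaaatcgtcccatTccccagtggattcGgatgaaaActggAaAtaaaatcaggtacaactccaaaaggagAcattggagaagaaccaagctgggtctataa
RPL39L, human: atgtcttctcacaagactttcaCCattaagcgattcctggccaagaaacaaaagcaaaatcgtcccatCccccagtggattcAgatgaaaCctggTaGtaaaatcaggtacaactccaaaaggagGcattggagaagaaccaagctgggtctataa
Rpl39, mouse: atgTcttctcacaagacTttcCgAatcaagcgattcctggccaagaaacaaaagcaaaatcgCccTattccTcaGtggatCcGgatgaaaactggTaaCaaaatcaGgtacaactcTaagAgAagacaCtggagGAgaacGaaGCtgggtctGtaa
Rpl39l, mouse: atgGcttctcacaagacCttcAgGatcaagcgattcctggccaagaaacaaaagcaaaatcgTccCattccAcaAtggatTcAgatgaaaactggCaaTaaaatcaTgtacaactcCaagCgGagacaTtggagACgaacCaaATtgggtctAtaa
All 4 coding sequences were 156 bases long. The human pair differed at 8 bases, an identity of 94.9%, and the mouse pair at 23 bases, an identity of 85.3%. The human genes lie at chrX:118920467-118925593 and chr3:186838736-186898696 on hg19, and the mouse genes at chrX:37082520-37085402 and chr16:10170226-10174911 on mm10.

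Members took a larger share of the expression of each mouse line than of each human line. Their FPKM summed to 17418 in Jurkat and 13605 in TALL104, and to 50384 in EL4 and 50705 in IVA12, which was 6.86%, 5.39%, 15.7% and 15.7% of the FPKM on all genes of the line's own species. As shares of counts, which involve no gene length, they took 4.99% (Wilson interval 4.98 to 4.999), 3.76% (3.75 to 3.76), 6.73% (6.72 to 6.74) and 6.50% (6.49 to 6.51). Intervals here and below are 95% intervals and cover counting error only. The gap between species was therefore wider in FPKM than in counts. The gene lengths recovered from the table had a median of 2890 bases over the human members at 1 FPKM or more and 1535 bases over such mouse members in IVA12, while the median coding length was 456 bases in both species.

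Within a library, members at 1 FPKM or more ran from 2.71 to 634 FPKM in Jurkat, 1.85 to 718 FPKM in TALL104, 92.7 to 2750 FPKM in EL4 and 31.3 to 3727 FPKM in IVA12. The median member stood at 170 FPKM in Jurkat, 131 FPKM in TALL104, 446 FPKM in EL4 and 416 FPKM in IVA12. Among the 100 highest genes of its own species, Jurkat had 29 members, TALL104 24, EL4 45 and IVA12 41. The summed FPKM of the large subunit was 1.30 times that of the small subunit in Jurkat, 1.30 times in TALL104, 1.19 times in EL4 and 1.599 times in IVA12. IVA12 thus gave the highest large-to-small ratio, and Rpl4, Rplp1 and Rpl8 were 3 of its 5 highest members.

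**Figure D1:**
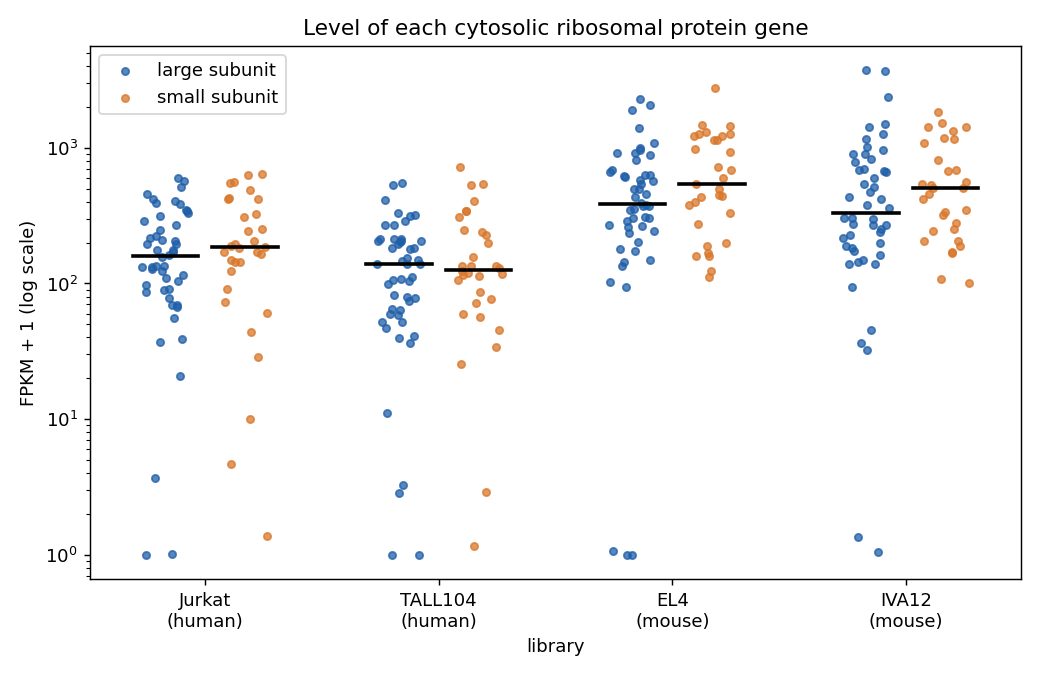
FPKM + 1 on a log axis for every member in the 4 libraries, large subunit in blue and small subunit in orange, with a black bar at the median of each. Medians sit higher in the mouse lines than in the human lines, and 3 members in Jurkat, TALL104 and EL4 and 2 in IVA12 lie below 1 FPKM.

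The highest members differed between species. In Jurkat the 5 highest included RPS6, the substrate of the S6 kinases, at 628 FPKM, RPL41 at 599 FPKM, RPL7A at 565 FPKM and RPS3A at 558 FPKM. In TALL104 they included RPS27 at 718 FPKM, RPL13A at 547 FPKM, RPL41 at 532 FPKM and RPS12 at 532 FPKM. RPL41 was thus in the top 5 of both human lines.
In EL4 the highest were Rps12 at 2750 FPKM, the stalk protein Rplp1 at 2275 FPKM, Rpl4 at 2057 FPKM, Rplp0 at 1890 FPKM and Rps15 at 1461 FPKM. In IVA12 they were Rpl4 at 3727 FPKM, Rplp1 at 3672 FPKM, Rpl8 at 2360 FPKM, Rps12 at 1826 FPKM and Rps26 at 1516 FPKM. Rpl4, which lines the exit tunnel, was the fourth highest of all mouse genes in IVA12.

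The lowest members at 1 FPKM or more were few and differed in kind. In Jurkat, RPL36A stood at 2.71 FPKM, RPS10 at 3.65 FPKM, RPS27L at 9.10 FPKM, RPL17 at 19.8 FPKM and RPS15A at 27.6 FPKM. In TALL104, RPL36A stood at 1.85 FPKM, RPS10 at 1.92 FPKM, RPL39L at 2.26 FPKM, RPL17 at 10.2 FPKM and RPS27L at 24.6 FPKM. Of the exon bases of RPS10, RPL36A and RPL17, 31.5%, 8.40% and 24.9% lay on the same strand in exons of the read-through genes RPS10-NUDT3, RPL36A-HNRNPH2 and RPL17-C18orf32, which are also in the table. The mouse counterparts without such a partner were at 275 FPKM for Rps10, 261 FPKM for Rpl36a and 1077 FPKM for Rpl17 in EL4, and at 252, 144 and 955 FPKM in IVA12. What part the shared exons had in the low human values was not tested.

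Members below 1 FPKM in both lines of a species included RPL3L and RPL10L in human and Rpl3l and Rpl10l in mouse. RPL3L, the muscle paralog of RPL3, was at 0.021 FPKM in Jurkat, from 2 counts, and 0 in TALL104, and Rpl3l was at 0.076 FPKM in EL4 and 0.048 FPKM in IVA12. RPL10L, the testis paralog of RPL10, had no count in either human library, and Rpl10l had none in EL4 and 9 counts, 0.348 FPKM, in IVA12. Both are the tissue-restricted copies of genes that these lines held at 206 to 1005 FPKM.

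Levels of the members were ordered alike within a species and less so between species. Over the 77 members at 1 FPKM or more in all 4 libraries, log2 FPKM gave a Pearson r of 0.95 between Jurkat and TALL104 and 0.86 between EL4 and IVA12, while the human with mouse values lay between 0.26 and 0.34. On counts alone, with no division by length, the same r were 0.94, 0.77 and 0.47 to 0.58. These r are across genes, which share library, length and sequence within a species and are not independent replicates. FPKM of the members went down with the recovered length, with a Spearman rho of -0.36 in Jurkat and -0.38 in TALL104, and of -0.63 in EL4 and -0.58 in IVA12. Counts of the members went up with coding length in every library, with a Spearman rho from 0.63 for IVA12 to 0.71 for Jurkat. The human with mouse likeness was lower in FPKM than in counts, whereas the EL4 with IVA12 likeness was higher in FPKM. The part of gene length in either likeness was not tested, and both are given as descriptions.

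In the human pair, 27 of 82 members were more than 1.5-fold higher in Jurkat, 5 were more than 1.5-fold higher in TALL104 and 50 were not past that threshold, on log2 of the ratio of FPKM + 1. Among 12214 human genes at 1 FPKM or more in either line, 34.2% were higher in Jurkat and 28.4% higher in TALL104 by the same threshold. The members' own shares were 32.9% and 6.10%. Among 142 human genes at 100 FPKM or more in both lines, 52 of them members, the shares were 31% and 12.7%. The median member stood at 0.40 on this scale, a 1.32-fold ratio, against 0.10 for the 12214 genes, and 67 members had a ratio above 1 and 14 below. With libraries scaled so that the median gene at 1 FPKM or more in both lines had a ratio of 1, a shift of 0.11 on the log2 scale, the median member was at 0.29 and 21 members were past the threshold towards Jurkat. Mitochondrially encoded genes took 14.9% of human FPKM in Jurkat and 20.6% in TALL104, and leaving them out also gave a median member of 0.29.

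The large-subunit members had a median log2 ratio of 0.44 and the small-subunit members 0.34. Past the threshold towards Jurkat were 18 of 50 large-subunit and 9 of 32 small-subunit members, and towards TALL104 3 and 2. Both subunits had more members past the threshold towards Jurkat than towards TALL104, and the difference between subunits was not tested. Over the 12214 human genes the shares were 34.2% towards Jurkat and 28.4% towards TALL104.

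RPL39L stood furthest towards Jurkat. It was at 35.8 FPKM in Jurkat, from 1320 counts, and at 2.26 FPKM in TALL104, from 68 counts, a 15.8-fold ratio (exact interval 12.4 to 20.5). RPL39 itself was at 68.0 FPKM in Jurkat and 50.8 FPKM in TALL104, a 1.34-fold ratio (1.28 to 1.40). RPL39L therefore made up 34.5% of the summed FPKM of the pair in Jurkat and 4.26% in TALL104. None of the 100-base windows over the RPL39L coding sequence occurred elsewhere on hg19, while 98.1% of those over RPL39 did.

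Next came RPS7, a small-subunit protein whose gene is mutated in some families with Diamond-Blackfan anaemia, at 205 FPKM in Jurkat and 70.4 FPKM in TALL104, a 2.91-fold ratio (2.85 to 2.98). RPL22, a large-subunit protein required for alpha-beta T cell development and deleted in some T cell leukaemias, was at 86.1 FPKM and 38.5 FPKM, a 2.23-fold ratio (2.16 to 2.31). RPS23, which sits at the decoding centre, was at 241 FPKM and 114 FPKM. The counting intervals of RPS7 and RPL22 lay wholly above 1.5-fold.
RPL36 was at 122 FPKM in Jurkat and 57.5 FPKM in TALL104, RPL37A at 96.8 and 45.7 FPKM, RPL6 at 287 and 148 FPKM, and RPL5, the carrier of 5S ribosomal RNA, at 385 and 204 FPKM. RPL36 shared 17.6% of its exon bases with HSD11B1L on the same strand, and the part of those bases in its value was not tested.

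Towards TALL104, RPS27L stood furthest. This paralog of RPS27 was at 9.10 FPKM in Jurkat and 24.6 FPKM in TALL104, 2.71-fold higher in TALL104 (2.53 to 2.89). RPS27, also called metallopanstimulin, was at 421 FPKM in Jurkat and 718 FPKM in TALL104, 1.71-fold higher in TALL104 (1.67 to 1.74). Paralog and parent thus differed in the same direction in the human pair.
RPL10, a late-joining large-subunit protein mutated in some T cell leukaemias, was at 206 FPKM in Jurkat and 330 FPKM in TALL104. RPLP1, an acidic protein of the stalk that recruits elongation factors, was at 132 and 205 FPKM, and RPL28 at 38.2 and 58.7 FPKM. RPL13A, RPS15A and RPS28 were the next lowest, with log2 ratios of -0.26, -0.25 and -0.24, which did not pass the threshold.

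**Figure D2:**
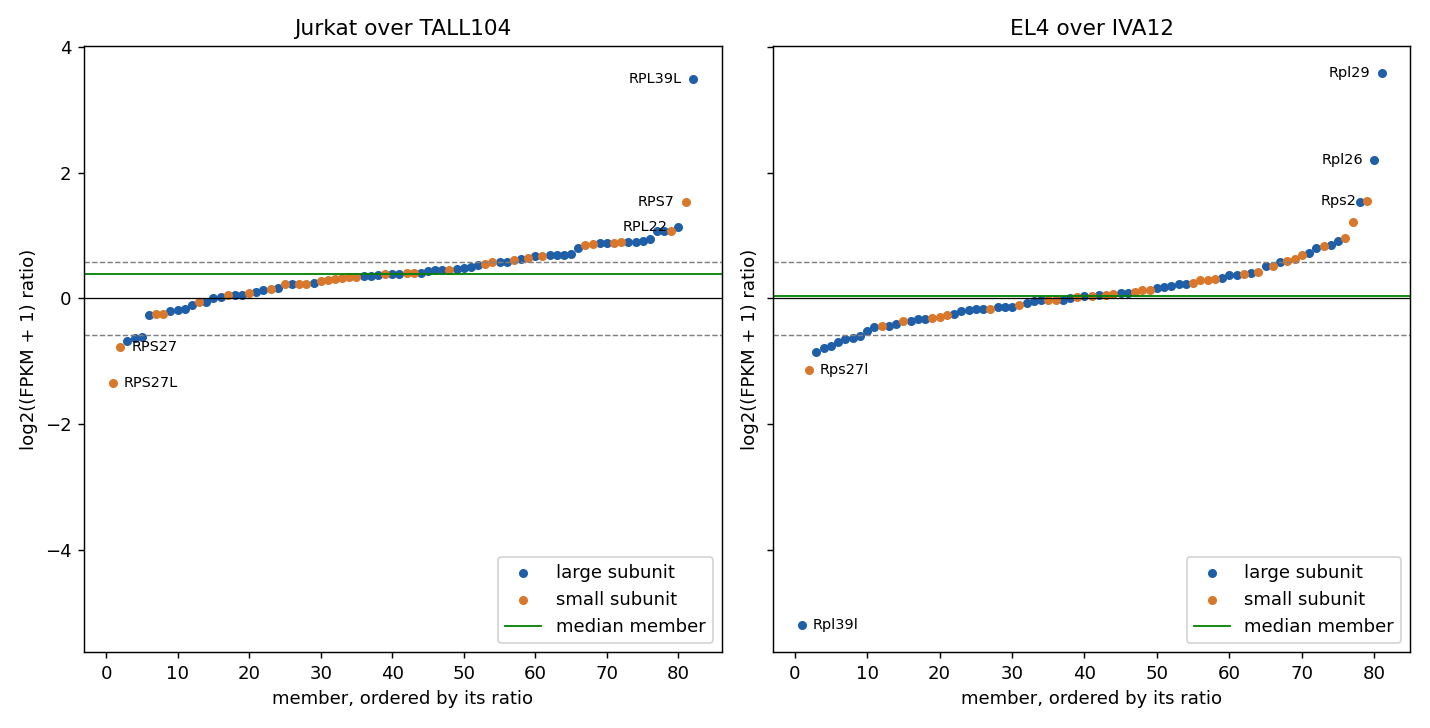
log2((FPKM + 1) ratio) of every member, ordered within each pair, with the 1.5-fold threshold dashed and the median member as a green line, for Jurkat over TALL104 and EL4 over IVA12. The median member sits at 0.40 for Jurkat over TALL104 and at 0.04 for EL4 over IVA12, and RPL39L, Rpl39l and Rpl29 stand apart from the others.

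In the mouse pair, 15 of 81 members were more than 1.5-fold higher in EL4, 9 were more than 1.5-fold higher in IVA12 and 57 were not past the threshold. Among 10801 mouse genes at 1 FPKM or more in either line, 23.8% were higher in EL4 and 26.5% higher in IVA12, against 18.5% and 11.1% of the members. Among 350 mouse genes at 100 FPKM or more in both lines, 75 of them members, the shares were 13.1% and 14%. The median member stood at 0.04, a 1.03-fold ratio, against -0.04 for the 10801 genes, with 44 members above a ratio of 1 and 37 below. The members of this pair were thus centred near equality, with an interquartile range of -0.26 to 0.38. Their standard deviation on the log2 scale was 0.69 over 78 members, against 0.60 over 79 members in the human pair.

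Large-subunit mouse members had a median log2 ratio of -0.04, with 8 of 50 past the threshold in each direction. Small-subunit members had a median of 0.13, with 7 of 31 past the threshold towards EL4 and 1 towards IVA12. Over the 10801 mouse genes the shares were 23.8% towards EL4 and 26.5% towards IVA12. No test of the difference between subunits was made.

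Rpl29, a large-subunit protein, stood furthest towards EL4. It was at 543 FPKM in EL4, from 13888 counts, and at 44.5 FPKM in IVA12, from 895 counts, a 12.2-fold ratio (11.4 to 13.1). Of its 100-base coding windows, 52.6% also occurred in annotated transcripts of other mouse genes, and the part of such copies in the ratio was not tested. Rpl26, a tunnel-exit protein, was at 433 FPKM in EL4 and 92.9 FPKM in IVA12, a 4.65-fold ratio (4.49 to 4.83).
Rps2 was at 936 FPKM in EL4 and 318 FPKM in IVA12, Rpl35a at 92.7 and 31.3 FPKM, and Rps18 at 440 and 189 FPKM. Rpl30 followed at 305 and 162 FPKM, and Rpl36a at 261 and 144 FPKM. Each of these 5 had copied windows, from 34.2% for Rpl35a to 83.6% for Rpl36a. Over the 78 members at 1 FPKM or more in both mouse lines, the log2 ratio and the share of copied windows had a Spearman rho of 0.16, and over the 79 human members 0.06. Among the 6 such mouse members with no copied window, none was past the threshold towards EL4 and 1 was past it towards IVA12, and among the 24 such human members 7 and 2 were.

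Towards IVA12, Rpl39l stood furthest. It had no count in EL4 and 746 counts, 35.5 FPKM, in IVA12. Set against a floor of 3 counts in EL4, 0.112 FPKM, it was at least 316-fold higher in IVA12. Rpl39 was at 179 FPKM in EL4 and 137 FPKM in IVA12, so that Rpl39l made up 20.5% of the pair in IVA12. None of the Rpl39l windows occurred in another annotated mouse gene.

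Rps27l was at 157 FPKM in EL4 and 347 FPKM in IVA12, 2.20-fold higher in IVA12 (2.12 to 2.29). Its parent Rps27 went the other way, at 332 FPKM in EL4 and 204 FPKM in IVA12. Rps27l therefore exceeded Rps27 in IVA12, at 63.0% of the pair, but not in EL4, at 32.2%. Copied windows made up 98.4% of those over Rps27 and 0% of those over Rps27l. The part of copies in these shares was not tested.
The other members past the threshold towards IVA12 were all of the large subunit. Rpl4 was at 2057 FPKM in EL4 and 3727 FPKM in IVA12, Rpl10 at 579 and 1005 FPKM, and Rpl8, which lies close to the peptidyl transferase centre, at 1394 and 2360 FPKM. Rplp1 was at 2275 and 3672 FPKM, Rpl19 at 956 and 1502 FPKM, Rpl14 at 919 and 1416 FPKM, and Rpl27 at 201 and 303 FPKM. Of these, Rpl4 and Rpl8 had few copied windows, 5.62% and 1.73%, and Rpl10 had 91.6%.

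**Figure D3:**
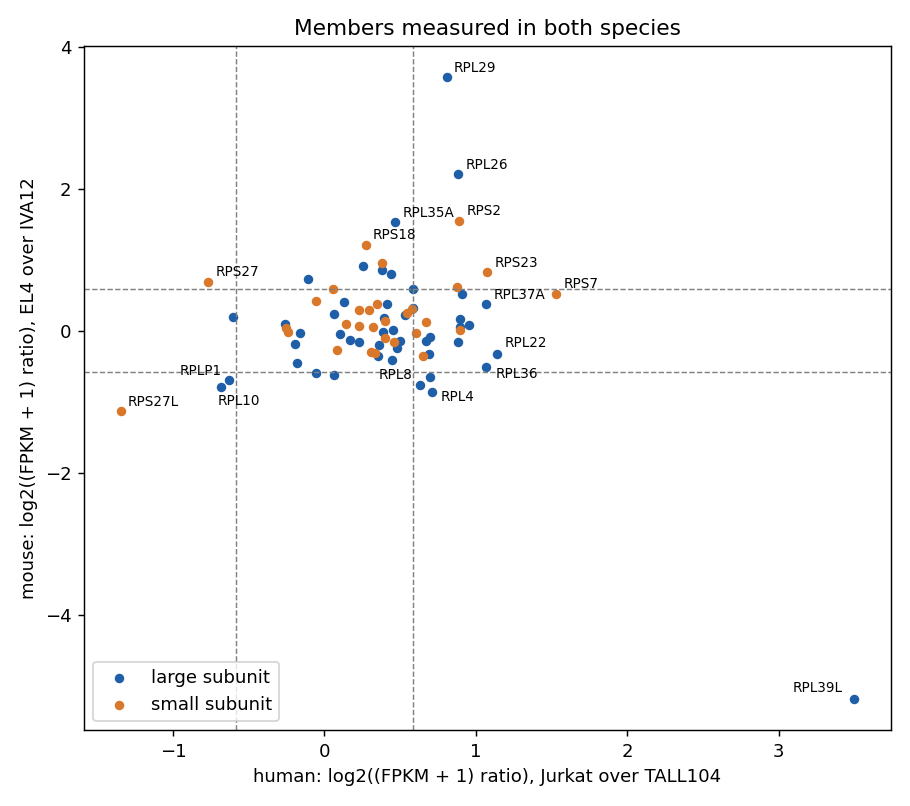
log2((FPKM + 1) ratio) of Jurkat over TALL104 on the horizontal axis and of EL4 over IVA12 on the vertical axis for the 78 symbols at 1 FPKM or more in both human lines and in IVA12, with the 1.5-fold thresholds dashed. Most members fall in the central band of the vertical axis, and RPL39L lies alone at the lower right.

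The pairs differ in species and in the kinds of cell they set against each other, so their ratios are placed side by side and share no library. Over the 77 members at 1 FPKM or more in all 4 libraries, the human and mouse log2 ratios had a Pearson r of 0.27 and a Spearman rho of 0.14, across genes. In the human pair 32.9% of members were past the threshold towards Jurkat and 6.10% towards TALL104. In the mouse pair 18.5% were past it towards EL4 and 11.1% towards IVA12, and overlap between pairs was not tested against these shares. RPL29, RPS23, RPS6, RPS2 and RPL26 were past the threshold towards both Jurkat and EL4. RPL10, RPS27L and RPLP1 were past it towards both TALL104 and IVA12. RPL39L, RPL8, RPL4 and RPL19 were past it towards Jurkat and IVA12, RPS27 towards TALL104 and EL4, and 39 shared symbols were past it in neither pair.

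The stalk proteins gave a like order in both species. RPLP0, the stalk base, had a log2 ratio of 0.58 between the human lines and 0.59 between the mouse lines, and RPLP1 -0.63 and -0.69. RPLP2 and RPL12 had -0.16 and -0.19 in human and -0.03 and -0.19 in mouse. RPLP0 lay just short of the threshold in human and just past it in mouse, and RPLP1 passed it in both.

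Among 9 exit tunnel members, 6 were past the threshold towards Jurkat and none towards TALL104, with a median of 0.70, whereas in mouse 1 was past it towards EL4 and 2 towards IVA12, with a median of -0.24. RPL17, which sits at the tunnel mouth, was at 19.8 FPKM in Jurkat and 10.2 FPKM in TALL104, and RPL26 at 66.3 and 35.4 FPKM. Among the Diamond-Blackfan anaemia genes, 3 of the 8 at 1 FPKM or more in either human line were past the threshold towards Jurkat. They were RPS7, RPL5 and RPS10, and in mouse 1 of 9, Rpl35a, was past it towards EL4. Over all genes at that level the shares were 34.2% towards Jurkat and 28.4% towards TALL104, and 23.8% towards EL4 and 26.5% towards IVA12. The members' own shares were 32.9%, 6.10%, 18.5% and 11.1%, in that order.

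Of the other paralogs, RPL36AL exceeded RPL36A in both human lines, at 170 FPKM in Jurkat and 193 FPKM in TALL104. Copied windows made up 84.7% of those over RPL36A and 0.24% of those over RPL36AL, and their part in this order was not tested. Mouse Rpl36al was at 101 FPKM in EL4 and 138 FPKM in IVA12, below Rpl36a. RPL26L1 was at 37.96 FPKM in Jurkat and 9.52 FPKM in TALL104, which was 36.4% and 21.2% of its pair with RPL26. Jurkat thus held the higher share of both RPL39L and RPL26L1.
RPL22L1 was at 8.69 FPKM in Jurkat and 10.01 FPKM in TALL104, 9.17% and 20.6% of its pair with RPL22. Mouse Rpl22l1 was at 25.1 FPKM in EL4 and 15.7 FPKM in IVA12, which made up 14.8% and 7.99% of its pair. Copied windows were 71.6% for RPL22 and 0% for RPL22L1, but 0% for Rpl22 and 40.6% for Rpl22l1. The part of copies in these shares was not tested. RPL7L1, which works in large-subunit assembly, was at 45.8 and 20.3 FPKM in the human lines, and Rpl7l1 at 42.2 and 73.8 FPKM in the mouse lines.

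**Figure D4:**
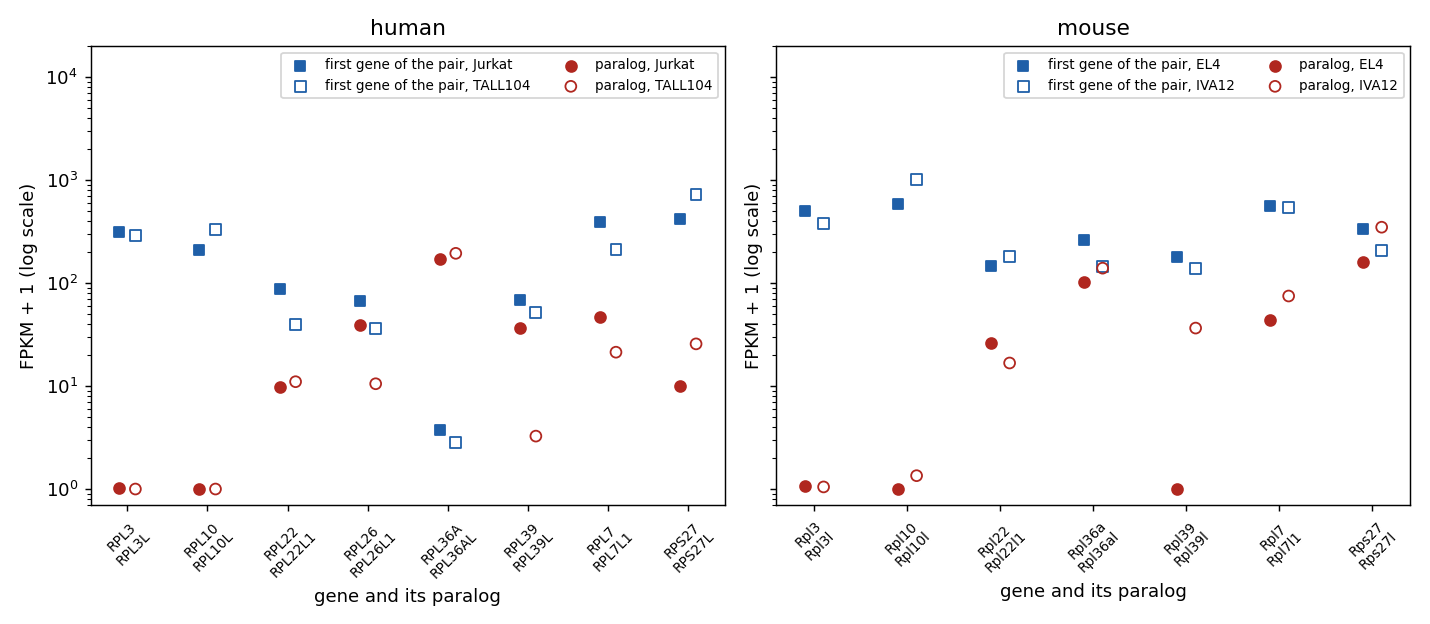
FPKM + 1 on a log axis for each paralog (red circles) and the gene it derives from (blue squares), filled for Jurkat and EL4 and open for TALL104 and IVA12. RPL39L and Rpl39l each separate widely between the lines of their species, and RPL3L and RPL10L lie at the bottom in both.

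Among ribosomal proteins outside the symbol rule, FAU, which is cleaved to release a ubiquitin-like protein and RPS30, was at 125 FPKM in Jurkat, 91.7 FPKM in TALL104, 396 FPKM in EL4 and 446 FPKM in IVA12. RACK1, the scaffold at the small-subunit head, was at 198 and 122 FPKM in the human lines, past the threshold, and at 332 and 477 FPKM in the mouse lines, not past it. Rps3a1 was at 1419 FPKM in EL4 and 1001 FPKM in IVA12.

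Lists of other genes that build or use ribosomes, chosen with earlier results of these data known, had median ratios above that of the members in the human pair, apart from the 5S list. Over all human genes at 1 FPKM or more in either line, 34.2% were past the threshold towards Jurkat and 28.4% towards TALL104. The counts of the lists were not tested against these shares. Ribosome assembly factors, the nucleolar proteins that process and join the parts, had a median log2 ratio of 1.33, with 34 of 40 past the threshold towards Jurkat and none towards TALL104. LYAR was at 47.3 FPKM in Jurkat and 5.89 FPKM in TALL104, and GAR1, of the pseudouridylation particle, at 35.8 and 4.52 FPKM. Mitochondrial ribosomal proteins had a median of 0.99, with 54 of 74 towards Jurkat and 3 towards TALL104, among them MRPL37 at 52.4 and 12.6 FPKM and MRPS28 at 15.2 and 3.16 FPKM. Both medians lay above the 0.40 of the cytosolic members.
Translation initiation factors had a median of 0.91, with 10 of 17 towards Jurkat, including EIF3C at 6.996 and 1.35 FPKM and EIF5B at 53.9 and 19.0 FPKM. RNA polymerase I and its factors had 0.65, with 8 of 14 towards Jurkat and 1 towards TALL104, including POLR1G at 9.09 and 1.82 FPKM and POLR1F at 23.8 and 6.24 FPKM. Elongation factors and other TOP genes had 0.60, with 8 of 15 towards Jurkat and 1 towards TALL104. That exception was TPT1, a TOP gene, at 376 FPKM in Jurkat and 1031 FPKM in TALL104, and EIF3E was at 95.5 and 35.6 FPKM.

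In the mouse pair the median ratios of these lists lay between -0.39 and 0.01, apart from the 5S list at -0.65. Over all mouse genes at 1 FPKM or more in either line, 23.8% were past the threshold towards EL4 and 26.5% towards IVA12. Again the counts of the lists were not tested against these shares. Assembly factors had a median of -0.39, with none of 39 past the threshold towards EL4 and 14 towards IVA12, including Eif6 at 29.9 and 82.5 FPKM and Nop14 at 51.7 and 127 FPKM, in EL4 and IVA12 in that order. Mitochondrial ribosomal proteins had -0.33, with 2 of 77 towards EL4 and 24 towards IVA12, including Mrpl34 at 28.3 and 90.8 FPKM and Mrpl57 at 7.60 and 23.3 FPKM. The median cytosolic member was at 0.04.
Initiation factors had -0.24, with 2 of 17 towards EL4 and 6 towards IVA12, including Eif1ax at 69.9 and 17.6 FPKM and Eif4ebp1, the mTOR-controlled inhibitor of cap binding, at 40.7 and 137 FPKM. RNA polymerase I and its factors had -0.28, with 2 of 14 in each direction, including Polr1e at 9.73 and 17.03 FPKM and Taf1b at 23.3 and 13.8 FPKM. Elongation factors and other TOP genes had 0.01, with 1 of 16 in each direction, Nap1l1 at 401 and 240 FPKM and Eef1a1 at 6112 and 9573 FPKM.

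The 5S particle of RPL5 and RPL11 is known to bind MDM2, a ubiquitin ligase, when assembly fails. In human, RPL11 was at 418 FPKM in Jurkat and 319 FPKM in TALL104 and BRIX1, an assembly factor, at 25.2 and 5.65 FPKM. In mouse, Mdm2 was at 20.7 FPKM in EL4 and at 1054 FPKM in IVA12. Cdkn2a, whose ARF product also binds MDM2, was at 0.186 and 116 FPKM. Rpl5 was at 310 and 216 FPKM and Rpl11 at 263 and 267 FPKM, so neither ribosomal protein passed the threshold, and Mdm2 and Cdkn2a did.

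**Figure D5:**
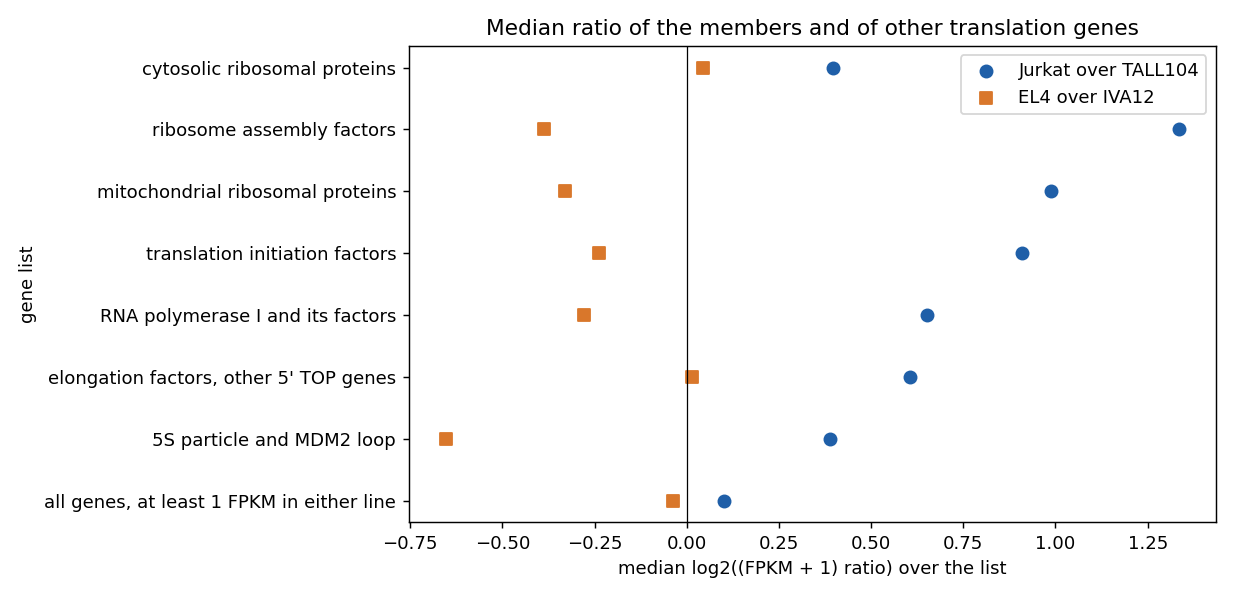
Median log2((FPKM + 1) ratio) of the cytosolic ribosomal protein genes, of 6 other gene lists and of all genes at 1 FPKM or more in either line, blue circles for Jurkat over TALL104 and orange squares for EL4 over IVA12. In the human pair the 5S list lies near the members and the other 5 lists above them, and in the mouse pair all 6 lists lie below the members.

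Human members with and without a TOP start had close median ratios. The 58 with a TOP start, all at 1 FPKM or more in both lines, had a median log2 ratio of 0.40 and the 21 others 0.48. The members lay on 21 human chromosomes, with 12 on chromosome 19, and on 19 mouse chromosomes, with 14 on chromosome 7.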

How the data were processed

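The 4 lymphocyte lines gave 1 bulk poly(A) library each. The authors aligned reads with STAR 2.5.1b to a combined reference (Cell Ranger reference 1.2.0, Ensembl release 82 on hg19 and release 84 on mm10), counted them per gene with featureCounts 1.6.3 and deposited FPKM. Strand setting, treatment of multiply aligned reads and gene lengths are not given in the sources used here. Each library total was the commonest whole number that FPKM and annotated exon length gave if a gene held 1 count. Counts then came from the smallest length up to 300000 bases that gave whole counts in all 4 libraries (relative tolerance 4e-12). Where the annotated exon length was a multiple of that length, it was used instead. In this way 100% of values came out whole. A recovered count fits its values, but other multiples of the smallest count would fit as well. For 22.2% of human and 72.8% of mouse genes with a value, the length used was that of the exons in the annotation used here.

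Symbols, positions, transcript starts and coding sequences came from GENCODE v44 lifted to hg19 and GENCODE M21 on mm10. Members, lists and the naming rule were chosen with earlier results of these data known. The text names the 8 members with the highest and the 8 with the lowest ratio of each pair, the 5 highest and 5 lowest of each library at 1 FPKM or more, members under 1 FPKM in both lines, the paralog pairs and, in each other list, the 2 genes with the largest change. A few genes that this rule names are not reported here. A difference past 1.5-fold was log2 of the ratio of FPKM + 1, with no test. Intervals (95%) were exact conditional for ratios and Wilson for shares. Copied windows were 100-base stretches over the coding sequence found elsewhere on hg19 or, in mouse, in transcripts of other genes. Scripts used Python 3.11.15, pandas 2.3.3, numpy 2.4.6, scipy 1.17.1, numba 0.67.0 and matplotlib 3.10.9, and were tested on simulated data. Pseudocounts of 0.1 and 0.01 FPKM, a minimum of 1 FPKM, a 2-fold threshold, 2 scalings and shares without mitochondrial genes, without the 5 highest members or in counts were the alternatives, and likeness in counts was added after seeing the data.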

Additional observations from a re-analysis of the deposited data

Results flagged for a closer look

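Each library also held counts on ribosomal protein genes of the species it did not come from. These genes summed to 17.03 FPKM in Jurkat, from 766 counts, 18.9 FPKM in TALL104, from 662 counts, 9.04 FPKM in EL4, from 798 counts, and 40.1 FPKM in IVA12, from 2839 counts, all above the 3 counts that a count of 0 allows. The sums were 0.0978%, 0.139%, 0.0179% and 0.0792% of the library's own ribosomal protein FPKM. The highest gene was mouse Rplp1 at 1.10 FPKM in Jurkat and 2.57 FPKM in TALL104, RPS12 at 0.608 FPKM in EL4 and RPS18 at 1.71 FPKM in IVA12. In IVA12, 9 human members reached 1 FPKM, against none in EL4. All human genes together summed to 566 FPKM in IVA12 and 122 FPKM in EL4, and the human members made up 7.09% and 7.40% of these sums. The higher level in IVA12 was thus not confined to ribosomal protein genes. For all mouse genes the sum was 120 FPKM in Jurkat, 14.2% of it on members, and 115 FPKM in TALL104, 16.4% of it on members. There is no library without cells of either species, and the source of these counts was not tested.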

How the results depend on the processing

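Of 58 alternative values for the counts, medians and shares, 37 stayed close to the reported value and 21 moved. A 2-fold threshold left 6 members higher in Jurkat, 1 higher in TALL104 (7 in all), 5 higher in EL4 and 2 higher in IVA12 (7 in all). The median human member moved from 0.40 to 0.43 with a pseudocount of 0.01 FPKM and to 0.29 under either scaling. The share of FPKM became 8.06%, 6.79%, 16.5% and 16.5% in Jurkat, TALL104, EL4 and IVA12 without mitochondrial genes, 4.99%, 3.76%, 6.73% and 6.50% in counts, and 5.69%, 4.25%, 12.4% and 11.6% without the 5 highest members. For the named genes, 380 of 449 alternative values stayed within the counting interval of the reported one. No paired analysis was possible because each line has 1 library and no replicate numbers are shared. Leaving out a replicate was likewise not possible. With 1 library per line, counting intervals do not cover the spread between cultures, and the cause of each move was not tested.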
